A study of Mus musculus with 8 samples.

Results

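The genes described here are 10 members of the TGF-β family system, taken by symbol from the RNA-Seq table of P14 CD8+ T cells: the ligand genes Tgfb1, Tgfb2 and Tgfb3, the receptor genes Tgfbr1, Tgfbr2, Tgfbr3, Acvr1b and Acvr2a, and Itgb8 and Furin, whose products act on the latent ligand. All 10 were present among the 24303 genes of the table. The study built a culture model of terminal dysfunction in CD8+ T cells by combining chronic antigen with TGF-β1, so these genes include those that encode the added agent and its receptors, beside other isoforms, activin receptors and proteins that process the latent ligand. RNA was sequenced from 4 conditions with 2 libraries each.

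P14 mice are on the C57BL/6 background and carry a transgenic T cell receptor for GP33, a glycoprotein peptide of lymphocytic choriomeningitis virus. Spleen CD8+ T cells from adult P14 mice of either sex were activated on plates coated with anti-CD3 and anti-CD28 for 2 days with IL-2, pooled, and then kept in medium with IL-2 and IL-15. Collection was on day 7 for Effector and on day 19 for the others. The RNA-Seq labels give no GP33 schedule for Effector, which the study elsewhere describes as stimulated for 7 days. Acute-2d cells received no GP33 after day 2, and Acute-7d cells received GP33 repeatedly until day 7; both were then held without peptide. T_Dysf cells received GP33 repeatedly until day 19 and recombinant human TGF-β1 from day 7 onward. Viable CD8+ T cells were sorted by flow cytometry before RNA isolation. The 4 conditions include none with GP33 until day 19 and no TGF-β1, so the added TGF-β1 and the continued antigen cannot be told apart in these libraries, and Effector differs from the other conditions in day of collection whatever its treatment. The mRNA values do not measure the TGF-β1 protein that was added.

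As background, each TGF-β ligand is made as a precursor that the protease furin cuts, and the mature dimer stays trapped in its own propeptide until integrins such as αvβ8 or other activators free it. The active ligand binds the type II receptor TGFBR2, which recruits and phosphorylates the type I receptor TGFBR1; that receptor then phosphorylates SMAD2 and SMAD3, which enter the nucleus with SMAD4. In CD8+ T cells the pathway is known for restraining effector cytokines and for inducing Itgae, which encodes CD103, an integrin subunit of tissue-resident cells.

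Values are normalized counts, which are read counts divided by a size factor for each library. Reads on genes, reckoned from the value that 1 read was worth, ranged from 19382147 to 24856195 per library, and 3 reads, taken as the floor for counting error, were worth 2.59 to 3.35 normalized counts. A gene is said to be called where limma, fitted over all genes on log2(normalized count + 1), gave a Benjamini-Hochberg adjusted p under 0.05 and a fold change of at least 2. Log2 differences are on that scale, which understates the change of genes with few reads. The labels speak of biological replicates without naming separate animals, and cells were pooled during culture, so p-values measure the spread between these libraries.

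The sorted cells carried the defining markers of CD8+ T cells. The 7 markers of T cells and CD8+ T cells summed to 79380 to 95010 normalized counts in the 6 libraries of Effector, Acute-2d and Acute-7d, and to 194400 and 192400 in T_Dysf. Of these markers Thy1, Cd3e and Cd3g were called higher in T_Dysf than in each other condition. Of the 5 markers of CD4 and regulatory T cells, Cd4 lay between 1.01 and 13.0 normalized counts in the 8 libraries and Foxp3 between 2.15 and 49.5, with a call in Effector below Acute-7d. Activated CD8+ T cells also express the others: Il2ra had 2637 to 11200 and was called higher in Effector than in each other condition, Ctla4 had 1340 to 4192 and was called lower in T_Dysf than in Acute-2d, and Ikzf2 had 187 to 559. Among markers of cells that make much TGF-β, the only measured platelet gene, Itga2b, lay between 22.2 and 81.0, and the myeloid list was led by Lyz2 with 187 to 438. The table held 4 of 5 dendritic cell markers, which summed to 448 to 2017: H2-Ab1 had 128 to 1731 and was called lower in T_Dysf than in each other condition (differences -1.77, -3.56 and -2.12 from Acute-7d, Acute-2d and Effector), Xcr1 had 101 to 546, Zbtb46 13.0 to 35.7, and Siglech was listed at 0 in 6 of 8 libraries. Between T_Dysf and Acute-7d the B cell gene Cd79b was called higher and the NK cell gene Ncr1 lower, and the myeloid gene Csf1r was called higher in T_Dysf than in Effector. Cd79b was also called higher in Effector than in Acute-7d (1.63), and Csf1r lower in Effector than in Acute-2d (-1.43). Any part of such cells in the levels given here was not tested. In bulk RNA, fewer cells of a type and less RNA per cell cannot be told apart.

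3 libraries stood apart. Effector replicate 1, Effector replicate 2 and Acute-7d replicate 1 carry RESUB at the start of their library names, a prefix left unexplained by the labels, and had Xist at 115, 53.5 and 54.5 normalized counts and the Y-linked Ddx3y at 1334, 1491 and 2161. The other 5 libraries had Xist at 21870 to 30430 and Ddx3y at 0 to 2.59. Prefix and sex markers therefore follow Effector entirely and divide the Acute-7d pair. In every comparison with Effector they cannot be told apart from the condition, except through the Acute-7d pair. A term for RESUB in the fit thus rests on the Acute-7d pair alone. By construction it leaves the difference of T_Dysf from Acute-2d unchanged. For T_Dysf minus Acute-7d it gives the same difference as leaving out Acute-7d replicate 1.

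Tgfb3 was the ligand gene that differed. It lies on chromosome 12 (chr12:86056745-86079041, minus strand, mm10). It had 19.2 and 14.0 normalized counts in Effector, 27.4 and 25.9 in Acute-2d, 17.9 and 14.1 in Acute-7d, and 2756 and 3228 in T_Dysf. The 2 T_Dysf libraries lay far above the other 6, whose values came from 14 to 26 reads each, so the gene was low but above the floor outside T_Dysf. T_Dysf exceeded Acute-7d by 7.46 on the log2 scale (SE 0.23, 95% interval 6.87 to 8.06, a fold change of 177 on the fitted scale, adjusted p = 0.00058). The difference was 6.75 from Acute-2d (SE 0.23, adjusted p = 0.000638) and 7.42 from Effector (SE 0.23, adjusted p = 0.000579). Among the 12028 genes with a mean of at least 50, Tgfb3 ranked 8 by its difference between T_Dysf and Acute-7d, 13 against Acute-2d and 20 against Effector. It reached that mean only through T_Dysf. The order of the other conditions was Acute-2d, Effector and Acute-7d; Acute-2d exceeded Effector by 0.67 (95% interval 0.07 to 1.26, adjusted p = 0.128), and Effector and Acute-7d overlapped.

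Tgfb1 encodes the isoform that was added to the T_Dysf culture, and its own mRNA was high everywhere. It had 4284 and 5324 normalized counts in Effector, 2993 and 3542 in Acute-2d, 3499 and 3725 in Acute-7d, and 3878 and 3940 in T_Dysf. Effector was highest and the day 19 conditions lay close together, with Acute-7d and Acute-2d overlapping. The largest condition mean was 1.47 times the smallest, and Tgfb1 was called in none of the 6 comparisons by limma. Its unadjusted p was under 0.05 in 2 of them, Effector minus Acute-7d (0.40, adjusted p = 0.12) and Effector minus Acute-2d (0.55, adjusted p = 0.0568). T_Dysf exceeded Acute-7d by 0.11 on the log2 scale (95% interval -0.23 to 0.46, adjusted p = 0.668), an interval that leaves room for no change and for differences well below a fold change of 2. In order of mean the conditions were Effector, T_Dysf, Acute-7d and Acute-2d, and no neighbouring pair passed the test (adjusted p = 0.225, 0.668 and 0.907).

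Tgfb2, the third ligand gene, was near the floor in all 8 libraries. Its values ran from 0 in T_Dysf replicate 1 to 5.27 in Acute-2d replicate 1, which corresponds to 0 to 5 reads. It passed 3 reads in 2 libraries, so no fold change is given and a difference between conditions was not detectable at this depth.

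**Figure D1:**
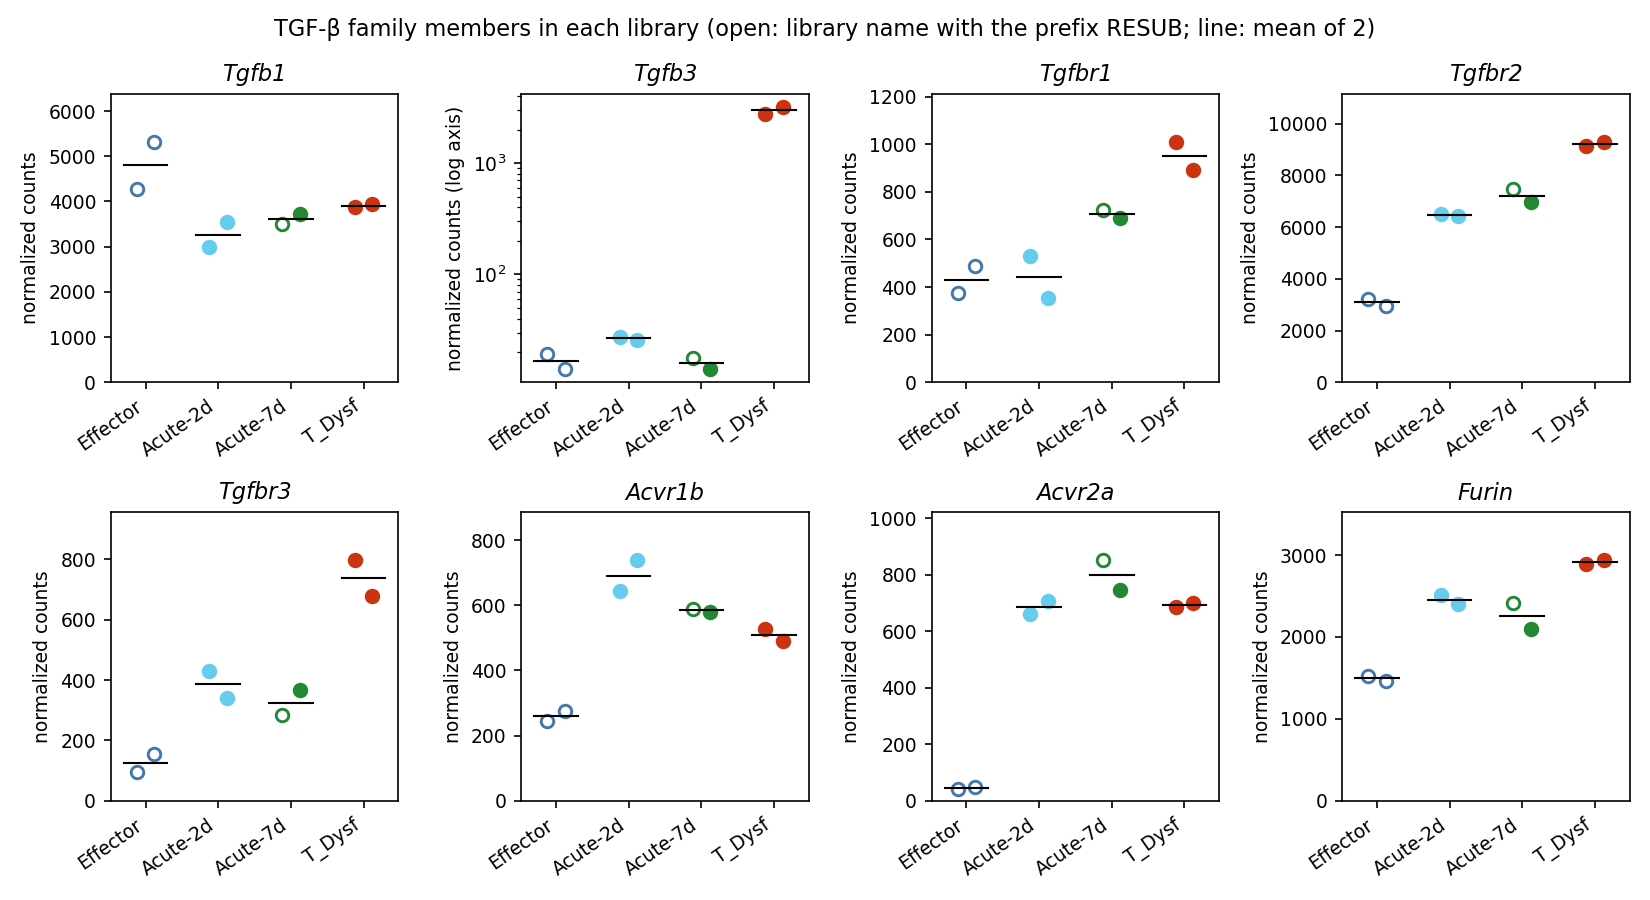
Normalized counts of the 8 members above 10 in at least 1 library, by condition, with a point per library and a line at the mean of 2; open points are the libraries whose names have the prefix RESUB, and the Tgfb3 panel has a log axis. Tgfb3 lies between 14.0 and 27.4 in 6 libraries and at 2756 and 3228 in T_Dysf, while Acvr2a lies at 40.5 and 48.9 in Effector and at 660 or more elsewhere.

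The receptor genes divided by condition in another way: most of them were lowest in Effector. Tgfbr2 encodes the type II receptor that binds the ligand. It had 3237 and 2950 normalized counts in Effector, 6501 and 6427 in Acute-2d, 7484 and 6950 in Acute-7d, and 9122 and 9301 in T_Dysf. Both Effector libraries lay below the other 6, and both T_Dysf libraries lay above them. T_Dysf exceeded Effector by 1.58 on the log2 scale (SE 0.07, adjusted p = 0.0015). Acute-2d exceeded Effector by 1.06 (95% interval 0.89 to 1.24, adjusted p = 0.0055), and without Effector replicate 2 it came just under the fold change of 2 (adjusted p = 0.0136, from 0.0012 to 0.0723 over all alternatives). In the fit of these 2 conditions alone the call was lost at the same difference (adjusted p = 0.0723). Effector minus Acute-7d was -1.22 (adjusted p = 0.00515), a call also lost in the fit of those 2 conditions alone (adjusted p = 0.0785). T_Dysf exceeded Acute-7d by 0.35 (SE 0.07, 95% interval 0.17 to 0.53, adjusted p = 0.046), which at a fold change of 1.28 was not called. That adjusted p ran from 0.0309 to 0.226 over the alternatives and from 0.039 to 0.172 with a library left out; it was above 0.05 when either library of Acute-2d, Acute-7d or T_Dysf was left out, with equal 75th percentiles, equal totals or quantile normalization, with the fit of these 2 conditions alone, with the replicate block, with a term for RESUB and, chosen after seeing the data, without the 3 RESUB libraries.

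Tgfbr1 encodes the type I receptor kinase that TGFBR2 activates. It had 374 and 488 normalized counts in Effector, 530 and 355 in Acute-2d, 723 and 692 in Acute-7d, and 1011 and 891 in T_Dysf. T_Dysf was highest, Acute-7d came next without overlapping it, and Effector and Acute-2d overlapped at the bottom. T_Dysf exceeded Effector by 1.15 on the log2 scale (SE 0.23, adjusted p = 0.0363) and Acute-2d by 1.13 (SE 0.23, adjusted p = 0.0446), both called, and Acute-7d by 0.42 (SE 0.23, 95% interval -0.18 to 1.03, adjusted p = 0.33), not called. The calls lay close to the threshold. That against Acute-2d was lost when any of 7 of the 8 libraries was left out, the exception being Acute-2d replicate 1, with adjusted p from 0.0492 to 0.19 over the 8 and differences from 0.84 to 1.42. That against Effector was lost without either library of Effector, Acute-7d or T_Dysf, with adjusted p from 0.0331 to 0.161 over the 8. A term for RESUB also ended both calls (adjusted p = 0.277 against Effector and 0.0917 against Acute-2d, and over all alternatives 0.00722 to 0.277 and 0.00957 to 0.19). Under that term the difference from Effector was 1.21. That from Acute-2d was 1.13 as before, which the term cannot change because neither T_Dysf nor Acute-2d has a RESUB library.

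Tgfbr3 encodes betaglycan, a co-receptor that presents ligand, TGF-β2 above all, to TGFBR2. It had 95.9 and 156 normalized counts in Effector, 429 and 342 in Acute-2d, 284 and 367 in Acute-7d, and 797 and 679 in T_Dysf. Effector was lowest, T_Dysf highest, and the acutely stimulated conditions overlapped between them. T_Dysf exceeded Effector by 2.58 on the log2 scale (SE 0.29, adjusted p = 0.01), a call that was lost without T_Dysf replicate 1 (adjusted p = 0.0653), in the fit of these 2 conditions alone (0.0717) and with a term for RESUB (0.15, from 0.000794 to 0.15 over all alternatives). Against Acute-7d the difference was 1.19 (SE 0.29, 95% interval 0.44 to 1.93, adjusted p = 0.0752), past the fold change but not the adjusted p; it was called without Effector replicate 1 or Effector replicate 2 (adjusted p = 0.0469 and 0.0468), and its adjusted p ran from 0.0208 to 0.274 over all alternatives. Effector fell below Acute-7d (difference -1.39, adjusted p = 0.0402) and below Acute-2d (difference -1.64, adjusted p = 0.0279). The call against Acute-7d was lost when any of 7 of the 8 libraries was left out, Effector replicate 2 being the exception (adjusted p from 0.0456 to 0.146), and the call against Acute-2d when either library of any condition but Effector was left out (adjusted p from 0.0345 to 0.119). The RESUB term ended these calls too (adjusted p = 0.146 and 0.297, and over all alternatives 0.00789 to 0.161 and 0.00435 to 0.297). Under that term the differences were -1.21 and -1.27, and T_Dysf exceeded Effector by 2.21.

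Acvr2a encodes a type II receptor of activins, relatives of TGF-β that also signal through SMAD2 and SMAD3. It had 40.5 and 48.9 normalized counts in Effector, 660 and 708 in Acute-2d, 851 and 744 in Acute-7d, and 684 and 700 in T_Dysf. Effector lay far below the other 6 libraries, and T_Dysf lay within the range of Acute-2d. Effector fell below Acute-7d (difference -4.13, SE 0.12, adjusted p = 0.000773), below Acute-2d (difference -3.91, SE 0.12, adjusted p = 0.00056), and T_Dysf exceeded Effector by 3.93 (SE 0.12, adjusted p = 0.000579). T_Dysf differed from Acute-2d by 0.02 (95% interval -0.29 to 0.32, adjusted p = 1.0), and the sign turned with equal 75th percentiles (-0.10), with quantile normalization (-0.05) and without Acute-2d replicate 1 (-0.03). Exons of Acvr2a share up to 446 bases with exons of Orc4 on the opposite strand, and the sources used here do not state whether reads were counted by strand. The condition means of Orc4 were 433 in Acute-7d, 445 in Acute-2d, 529 in Effector and 555 in T_Dysf, and the part of reads from Orc4 in the values of Acvr2a was not tested.

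Acvr1b encodes the type I receptor that pairs with activin type II receptors. It had 244 and 277 normalized counts in Effector, 643 and 738 in Acute-2d, 589 and 581 in Acute-7d, and 528 and 489 in T_Dysf. Effector was again lowest, but among the day 19 conditions T_Dysf was lowest, the reverse of the order of Tgfbr2. Effector fell below Acute-2d (difference -1.40, SE 0.10, adjusted p = 0.00693) and below Acute-7d (difference -1.17, SE 0.10, adjusted p = 0.0108), both called. The call against Acute-7d was lost without Acute-7d replicate 1 (adjusted p = 0.056, from 0.00248 to 0.0813 over all alternatives), and that against Acute-2d with a term for RESUB (adjusted p = 0.0789, from 0.00137 to 0.0827). In the fit of the 2 conditions compared alone both calls were lost (0.0813 and 0.0827). With the RESUB term the difference of Effector from Acute-2d was -1.42. T_Dysf exceeded Effector by 0.96 (SE 0.10, adjusted p = 0.00883), just under the fold change of 2, and it was called without Effector replicate 2 (1.06) or without T_Dysf replicate 2 (1.02). T_Dysf lay below Acute-2d by a difference of -0.44 (95% interval -0.70 to -0.18, adjusted p = 0.058) and below Acute-7d by a difference of -0.20 (95% interval -0.46 to 0.06, adjusted p = 0.29), neither of them called.

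Promoter sequence is shown, as context, for 3 receptor genes called higher in T_Dysf than in Effector. The call of Tgfbr1 lay close to the threshold. RefSeq promoters (GRCm38.p6) were matched for 8 of the 10 genes, with 10 entries; Tgfb3 and Tgfbr3 were not matched. Each sequence is the 250 bases before the start site, read along the strand of the gene, at chr9:116175364-116175613 on the minus strand for Tgfbr2, chr4:47352972-47353221 on the plus strand for Tgfbr1 and chr2:48813859-48814108 on the plus strand for Acvr2a. None of the 3 windows overlaps an annotated GENCODE exon. Capitals mark GGGCGG, the GC box, on either strand.
Tgfbr2: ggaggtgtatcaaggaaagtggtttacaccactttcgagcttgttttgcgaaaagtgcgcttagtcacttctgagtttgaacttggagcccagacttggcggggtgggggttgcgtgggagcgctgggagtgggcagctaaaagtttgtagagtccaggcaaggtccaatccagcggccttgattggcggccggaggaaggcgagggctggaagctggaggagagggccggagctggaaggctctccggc
Tgfbr1: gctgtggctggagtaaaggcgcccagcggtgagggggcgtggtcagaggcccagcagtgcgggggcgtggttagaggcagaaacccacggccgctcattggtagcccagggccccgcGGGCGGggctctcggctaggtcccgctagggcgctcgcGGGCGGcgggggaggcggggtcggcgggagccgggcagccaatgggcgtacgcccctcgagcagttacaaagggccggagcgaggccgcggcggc
Acvr2a: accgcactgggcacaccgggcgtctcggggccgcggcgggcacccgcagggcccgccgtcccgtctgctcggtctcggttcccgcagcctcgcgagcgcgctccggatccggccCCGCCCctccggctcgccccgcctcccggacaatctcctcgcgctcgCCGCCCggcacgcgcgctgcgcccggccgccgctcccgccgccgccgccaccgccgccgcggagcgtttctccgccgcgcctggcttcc
The GC box was found at 2 places in the window of Acvr2a, starting 136 and 89 bases before the start site, at 2 places in that of Tgfbr1, starting 133 and 95 bases before it, and at none in that of Tgfbr2. It is present in 32.7% of the 32851 RefSeq promoter windows of 250 bases. The same windows were searched on both strands for CAGACA, a SMAD-binding motif (in 17.1% of all windows), its palindromic form GTCTAGAC (0.167%), the AP-1 motif TGANTCA (6.75%) and the cAMP response element TGACGTCA (1.55%). None of these letters was in the 3 windows shown. Tgfbr1 has another RefSeq entry, with the window chr4:47385966-47386215 on the plus strand, which is not shown and holds CAGACA starting 203 bases before its start site. Windows of other members, also not shown, held the GC box in Tgfb1, Furin and Acvr1b and CAGACA in Tgfb2, Furin and Itgb8. These motifs were thus not limited to the genes shown. Any relation of a motif to the level of a gene was not tested. GC made up 82.0% of the Acvr2a window, 74.8% of that of Tgfbr1 and 58.4% of that of Tgfbr2, beside a median of 52.4% over all windows.

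Of the genes that act on the latent ligand, Furin was expressed and Itgb8 was not detected. Furin, the protease that cuts the TGF-β precursors, had 1529 and 1464 normalized counts in Effector, 2510 and 2403 in Acute-2d, 2409 and 2093 in Acute-7d, and 2888 and 2938 in T_Dysf. Effector was lowest and T_Dysf highest, each clear of all other libraries, and the acutely stimulated conditions overlapped. T_Dysf exceeded Effector by 0.96 on the log2 scale (SE 0.08, adjusted p = 0.00515), which came just under the fold change of 2, and it was called after quantile normalization (1.01) and with a term for the RESUB libraries (1.16). Against Acute-7d the difference was 0.38 (SE 0.08, 95% interval 0.17 to 0.58, adjusted p = 0.0527). Itgb8, which encodes the β8 subunit of the αvβ8 integrin, was listed at 0 in all 8 libraries, so at most the 2.59 to 3.35 normalized counts of the floor are allowed by counting error.

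The comparisons share libraries, so the members' counts are given side by side. Between T_Dysf and Acute-7d, which differ in GP33 after day 7 and in TGF-β1, 1 of the 10 members, Tgfb3, was called higher, where 2.54% of all genes were called higher, and none was called lower, where 3.03% of all genes were. Between T_Dysf and Acute-2d 2 members were called higher, Tgfb3 and Tgfbr1, against 3.14% of all genes, and none lower, against 4.21%. Between T_Dysf and Effector 5 were called higher, Tgfb3, Tgfbr1, Tgfbr2, Tgfbr3 and Acvr2a, against 4.47% of all genes, and none lower, against 4.75%. With only genes of a mean of at least 50 tested, 12.3%, 14.1% and 18.4% of genes were called in either direction in these 3 comparisons. The members called were then 2, 2 and 5. Of the 8 members above the floor, none was lower by a fold change of 2 in these 3 comparisons. With limma's unadjusted p under 0.05 and no fold change required, 4 members were higher in T_Dysf than in Acute-7d, where 13.2% of all genes were, and 0 lower, where 12.9% were. At the same threshold 5 were higher than in Acute-2d (13.6% of all genes) and 1, Acvr1b, lower (14.1%), and 7 were higher than in Effector (15.8%) and 0 lower (16% of all genes). Without the 3 libraries with the prefix RESUB, an alternative chosen after seeing the data, 1 member was called between T_Dysf and Acute-7d, where Acute-7d then had 1 library and 2.58% of all genes were called in either direction, and 1 between T_Dysf and Acute-2d, beside 5.37%. With a term for these libraries 4 were called between T_Dysf and Effector, beside 1.59% of all genes in either direction; Tgfbr1 and Tgfbr3 lost the call and Furin gained it.

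Between Effector and Acute-7d 4 members were called lower in Effector, Tgfbr2, Tgfbr3, Acvr1b and Acvr2a, where 3.88% of all genes were called lower; none was called higher, against 4.18%. The same 4 were called lower in Effector than in Acute-2d, against 4.48% of all genes, and none higher, against 4.31%. With only genes of a mean of at least 50 tested, 16.1% of genes were called in either direction against Acute-7d and 17.7% against Acute-2d. When the fit had a term for RESUB, 3 members were called between Effector and Acute-7d, beside 3.32% of all genes in either direction, and Tgfbr3 lost the call. Between Effector and Acute-2d 2 were called under that term, beside 1.44%, and Tgfbr3 and Acvr1b lost the call. With an unadjusted p under 0.05 and no fold change required, Tgfb1 alone was higher in Effector than in Acute-7d, where 15.2% of all genes were, and 6 members were lower (15.1% of all genes). Against Acute-2d Tgfb1 alone was again higher (15.5% of all genes) and 6 members lower (15.8%). Between Acute-7d and Acute-2d limma called none of the members, where 0.0782% and 0.0905% of all genes were called higher and lower in Acute-7d. At an unadjusted p under 0.05 Tgfbr1 was higher in Acute-7d (0.70, adjusted p = 0.61), as were 3.24% of all genes, and Tgfb3 lower (-0.71, adjusted p = 0.605), as were 4.07%. Over the 4 conditions together, limma's moderated F test called 6 of the 10 members, Tgfb3, Tgfbr2, Tgfbr3, Acvr1b, Acvr2a and Furin, where it called 20.2% of all genes. That count ran from 4 to 8 over the alternatives, and the share of all genes did not always move with it. With the replicate block the share fell to 12.7% while the count stayed at 6. The F test called 4 members under the RESUB term and without T_Dysf replicate 1 (6.98% and 4.6% of all genes), 5 without Acute-7d replicate 1 or T_Dysf replicate 2 (9.84% and 11.4%), and 8 at an unadjusted p under 0.05 (37%). Of the 10 members 8 had a mean of at least 50. With only genes at that level tested, the F test called 7 members, beside 52.3% of those genes, well above the 20.2% of all genes.

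**Figure D2:**
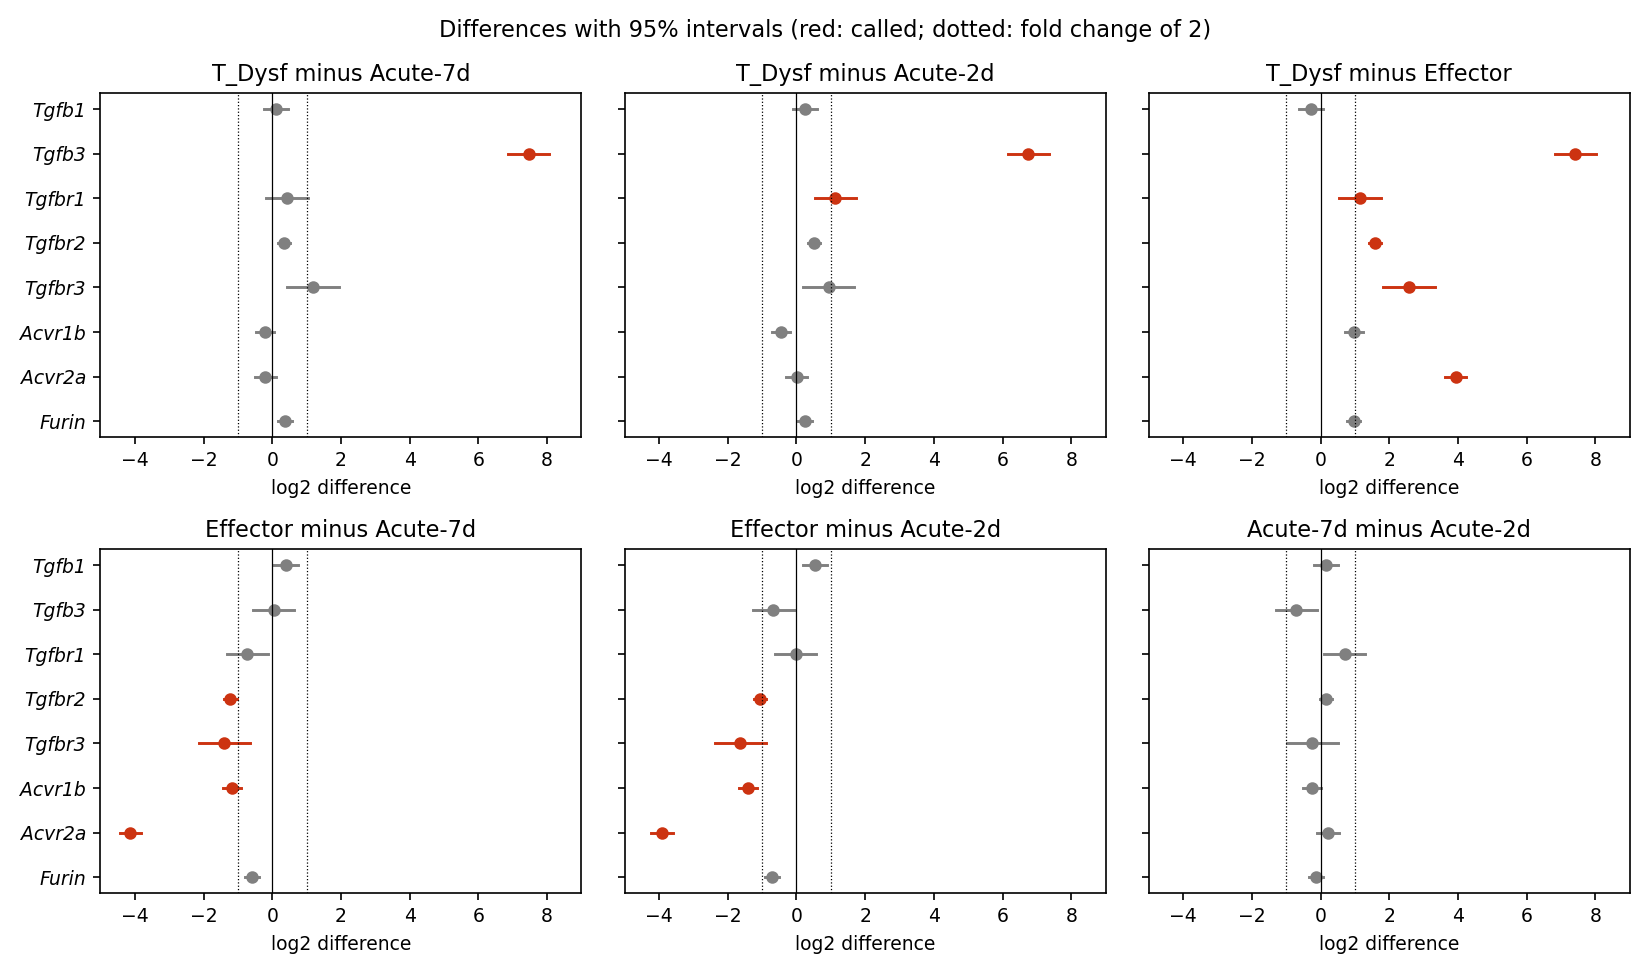
Log2 differences of 8 members in the 6 comparisons, with 95% intervals from limma; red marks called genes, and dotted lines mark a fold change of 2. Tgfb3 stands at 6.75 to 7.46 in the comparisons of T_Dysf, Acvr2a at -4.13 and -3.91 in those of Effector with Acute-7d and Acute-2d, and no member is called between Acute-7d and Acute-2d.

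Levels of different genes were set side by side per length, as normalized counts per kb of annotated exon. In Effector the ligand gene Tgfb1 led with 953 ± 146 per kb (SD, n = 2), ahead of Tgfbr2 with 378 ± 24.7 (SD, n = 2). In T_Dysf the level of Tgfbr2 was 1130 ± 15.5 per kb (SD, n = 2), that of Tgfb3 884 ± 98.6 and that of Tgfb1 775 ± 8.76. Per kb, Tgfb3 stood at 1.14 times the level of Tgfb1 in T_Dysf. In counts not divided by length Tgfb1 was the higher there, with a mean of 3909 against 2992. The order of these genes thus rests on the lengths used, 5.04 kb for Tgfb1 and 3.38 kb for Tgfb3. These are unions of GENCODE exons, whereas the authors counted RefSeq transcripts. In Acute-7d the levels per kb were 4.73 ± 0.776 for Tgfb3 and 716 ± 31.7 for Tgfb1. The type I receptor gene Tgfbr1 lay below Tgfbr2 in each condition, with 65.9 against 378 per kb in Effector and 146 against 1130 in T_Dysf. Furin ran from 163 to 317 per kb, and Acvr1b, Acvr2a and Tgfbr3 lay between 113 and 122 per kb in T_Dysf. Differences between genes were not tested.

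**Figure D3:**
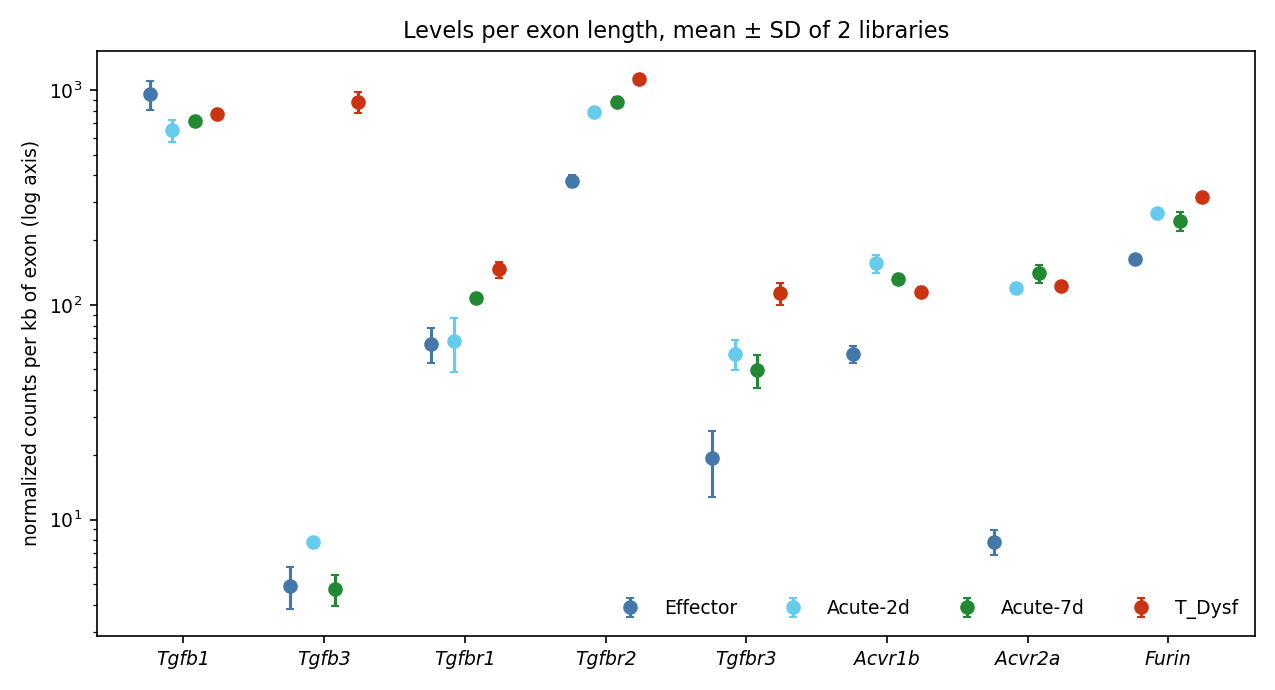
Normalized counts per kb of exon, on a log axis, for 8 members in the 4 conditions; points are means and bars the SD of 2 libraries. Tgfb3 reaches 884 in T_Dysf, near the 775 of Tgfb1, and lies at 7.88 or less in the other conditions. Without division by length the T_Dysf means are 2992 for Tgfb3 and 3909 for Tgfb1.

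Further receptors of the family also differed. Of 10 other receptor genes 9 were in the table, and between T_Dysf and Acute-7d, where 2.54% of all genes were called higher and 3.03% lower, 2 were called higher and 1 lower. The median difference of the 5 with a mean of at least 50 was -0.56, beside 0.02 over all genes at that level. Acvr1 was among these 5 only through T_Dysf, with a mean of 52.7 over the 8 libraries. Acvr1, a type I receptor for bone morphogenetic proteins and activins, had 11.2 and 18.2 normalized counts in Acute-7d and 172 and 166 in T_Dysf (log2 difference 3.48, SE 0.37, adjusted p = 0.0117). Acvrl1, a type I receptor known from endothelium, had 21.9 and 33.1 in Effector, 494 and 884 in Acute-2d, 60.3 and 75.7 in Acute-7d and 17.3 and 9.79 in T_Dysf. It was high in Acute-2d and low in both Effector and T_Dysf, which were called lower than Acute-2d (differences -4.56 and -5.56, adjusted p = 0.0108 and 0.005) while T_Dysf minus Effector was not called (-0.99, adjusted p = 0.207). Its call against Acute-7d (difference -2.29, adjusted p = 0.0456) was lost whichever of the 8 libraries was left out (adjusted p from 0.0617 to 0.157) and in 14 of 22 alternatives in all (0.011 to 0.191), the RESUB term among them. The call of Acvr1 was lost without Acute-7d replicate 1, without T_Dysf replicate 1, with a term for RESUB and, chosen after seeing the data, without the 3 RESUB libraries (adjusted p from 0.00296 to 0.0913 over all alternatives). With the RESUB term the differences were 3.15 for Acvr1 and -2.45 for Acvrl1. Acvr1c, named after its values were seen because it is below a mean of 50, had 36.3 and 43.6 in T_Dysf and 0 to 3.01 in the other 6 libraries.

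Other ligands and binding proteins of the family were scarce. Of 23 genes 16 were in the table and 2 had a mean of at least 50, Inha and Gdf11. None was called between T_Dysf and Acute-7d, beside the same shares of all genes; Gdf11 was called higher in T_Dysf than in Acute-2d, and Inha higher in T_Dysf than in Effector.

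Genes of latency and activation moved in both directions. Of 19 genes 17 were in the table; between T_Dysf and Acute-7d 1 was called higher and 3 lower (2.54% and 3.03% of all genes), with a median of -0.65 for the 9 with a mean of at least 50, beside 0.02 over all genes. Itgav, which encodes the αv subunit shared by the integrins that free TGF-β, had 1448 and 1756 normalized counts in Acute-7d and 5768 and 5881 in T_Dysf. T_Dysf exceeded the other 6 libraries of Itgav, and Acute-7d by 1.87 (SE 0.12, adjusted p = 0.00392). Among the β subunits that can pair with it, Itgb1 fell by 2.06 (SE 0.15, adjusted p = 0.00511), from 14780 and 13940 to 3005 and 3919, and Itgb3 fell by 1.70 (SE 0.22, adjusted p = 0.0181), from 2201 and 2332 to 681 and 716. Itgb6 was near the floor in the means of all conditions, with 0 to 1.58 normalized counts. The call of Itgb3 was lost without either library of Acute-7d or T_Dysf and with a term for RESUB (adjusted p from 0.00179 to 0.106 over all alternatives), and that of Itgb1 without the 3 RESUB libraries, an alternative chosen after seeing the data (0.0708, from 0.00029 to 0.0708). With the RESUB term the difference of Itgb3 was -1.74. Mmp9, a protease named after its values were seen, had 63.6 and 67.7 in Acute-7d and 2.59 and 0.89 in T_Dysf, the latter at or under 3 reads. Lrrc32, which encodes the latent TGF-β anchor GARP, had condition means of 2067 in Acute-2d, 684 in Acute-7d, 227 in Effector and 147 in T_Dysf. Effector and T_Dysf were called lower than Acute-2d, and T_Dysf was not called against Acute-7d (difference -2.11, adjusted p = 0.0879) or Effector (-0.67, adjusted p = 0.467).

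Of 19 signal transducers and partners 17 were in the table, and Smad3 alone was called between T_Dysf and Acute-7d, as lower, beside 3.03% of all genes. The median of the 16 with a mean of at least 50 was -0.24, beside 0.02 over all genes. Smad3, a receptor-regulated SMAD that carries the signal to DNA, had 679 and 1181 normalized counts in Effector, 1844 and 1856 in Acute-2d, 1723 and 1835 in Acute-7d, and 68.2 and 96.1 in T_Dysf. Both T_Dysf libraries lay far below the other 6. On the log2 scale T_Dysf minus Acute-7d was -4.44 (SE 0.30, adjusted p = 0.00461), T_Dysf minus Acute-2d -4.50 (adjusted p = 0.00348) and T_Dysf minus Effector -3.45 (adjusted p = 0.00624). Smad2, its close relative, had condition means of 863, 787, 783 and 834 in Effector, Acute-2d, Acute-7d and T_Dysf, and Smad4, the common partner, 892, 1204, 1226 and 896; neither was called in a comparison of T_Dysf.

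The feedback and turnover list holds inhibitors of the pathway and also Usp15, Usp4 and Usp11, deubiquitinases known to stabilise its receptors or SMADs, none of which was called between T_Dysf and Acute-7d. Of the list 5 of 17 were called higher and none lower (2.54% and 3.03% of all genes), with a median of 0.05 for the 16 with a mean of at least 50, beside 0.02 over all genes. Ldlrad4 and Spsb1 reached that mean only through T_Dysf. Spsb1, whose product helps degrade TGFBR2, had 1.12 and 4.04 normalized counts in Acute-7d and 1359 and 1437 in T_Dysf. Acute-7d replicate 1 was under the floor of 3 reads, so the size of the fitted log2 difference of Spsb1, 8.74 (SE 0.74, adjusted p = 0.00688), depends on the pseudocount; it ran from 6.82 to 9.37 over the alternatives and from 8.12 to 9.37 with a library left out. Ldlrad4, an inhibitor of SMAD phosphorylation, had 46.9 and 27.3 in Acute-7d and 1484 and 1256 in T_Dysf (5.21, SE 0.34, adjusted p = 0.00403). Pmepa1, a related inhibitor, had 74.8 and 90.9 in Acute-7d and 1693 and 1950 in T_Dysf (4.45, SE 0.54, adjusted p = 0.0159). Skil, a SMAD corepressor, had 2089 and 1940 in Acute-7d and 6720 and 6024 in T_Dysf (1.66, SE 0.32, adjusted p = 0.0453). In each of these 4 genes both T_Dysf libraries lay above the other 6. Ski, a related corepressor, was also called, with a difference of 1.08 (adjusted p = 0.0108) that came under the fold change of 2 without Acute-7d replicate 2 (0.96) or without T_Dysf replicate 2 (0.98), while the inhibitory SMAD gene Smad7 had 1477 and 1193 in Acute-7d and 1030 and 909 in T_Dysf (difference -0.46, adjusted p = 0.144). The calls of Pmepa1 and Skil were lost without either library of Acute-7d or T_Dysf, and that of Skil also without either Effector library (adjusted p up to 0.0917 and 0.189). With a term for RESUB the calls of Pmepa1 and Skil were also lost (0.0894 and 0.171, and over all alternatives 0.00121 to 0.0917 and 0.00629 to 0.214). Under that term the differences were 4.31 and 1.71, the same as without Acute-7d replicate 1. The call of Skil was lost too with equal 75th percentiles, the replicate block and, chosen after seeing the data, without the 3 RESUB libraries, and that of Ski with equal 75th percentiles, in the fit of these 2 conditions alone and without the 3 RESUB libraries (adjusted p from 0.00178 to 0.0647 over all alternatives).

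Of 15 known target genes, all in the table, 6 were called higher in T_Dysf than in Acute-7d and none lower, beside 2.54% and 3.03% of all genes; 4 of the 6, Skil, Ski, Pmepa1 and Ldlrad4, belong to the feedback list too. The median of the 12 with a mean of at least 50 was 0.82, beside 0.02 over all genes. Ldlrad4 was among these 12 only through T_Dysf. Itgae had 71.4 and 73.7 normalized counts in Acute-7d and 40460 and 37820 in T_Dysf, and 50.2 to 101 in Effector and Acute-2d (T_Dysf minus Acute-7d 9.05, SE 0.22, adjusted p = 0.000385). Cdkn2b, which encodes a cell cycle inhibitor, had 63.6 and 63.6 in Acute-7d and 188 and 250 in T_Dysf (log2 difference 1.75, SE 0.30, adjusted p = 0.0346), a call lost without either library of Effector, Acute-7d or T_Dysf, with a term for RESUB, with the replicate block, in the fit of these 2 conditions alone and, chosen after seeing the data, without the 3 RESUB libraries (adjusted p from 0.0117 to 0.207 over all alternatives). With the RESUB term, as without Acute-7d replicate 1, the difference of Cdkn2b was 1.75. Between T_Dysf and Effector the list's median was 1.95, beside -0.04 over all genes, with 6 called higher and 2 lower, Id3 and Tgif1, beside 4.47% and 4.75% of all genes.

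**Figure D4:**
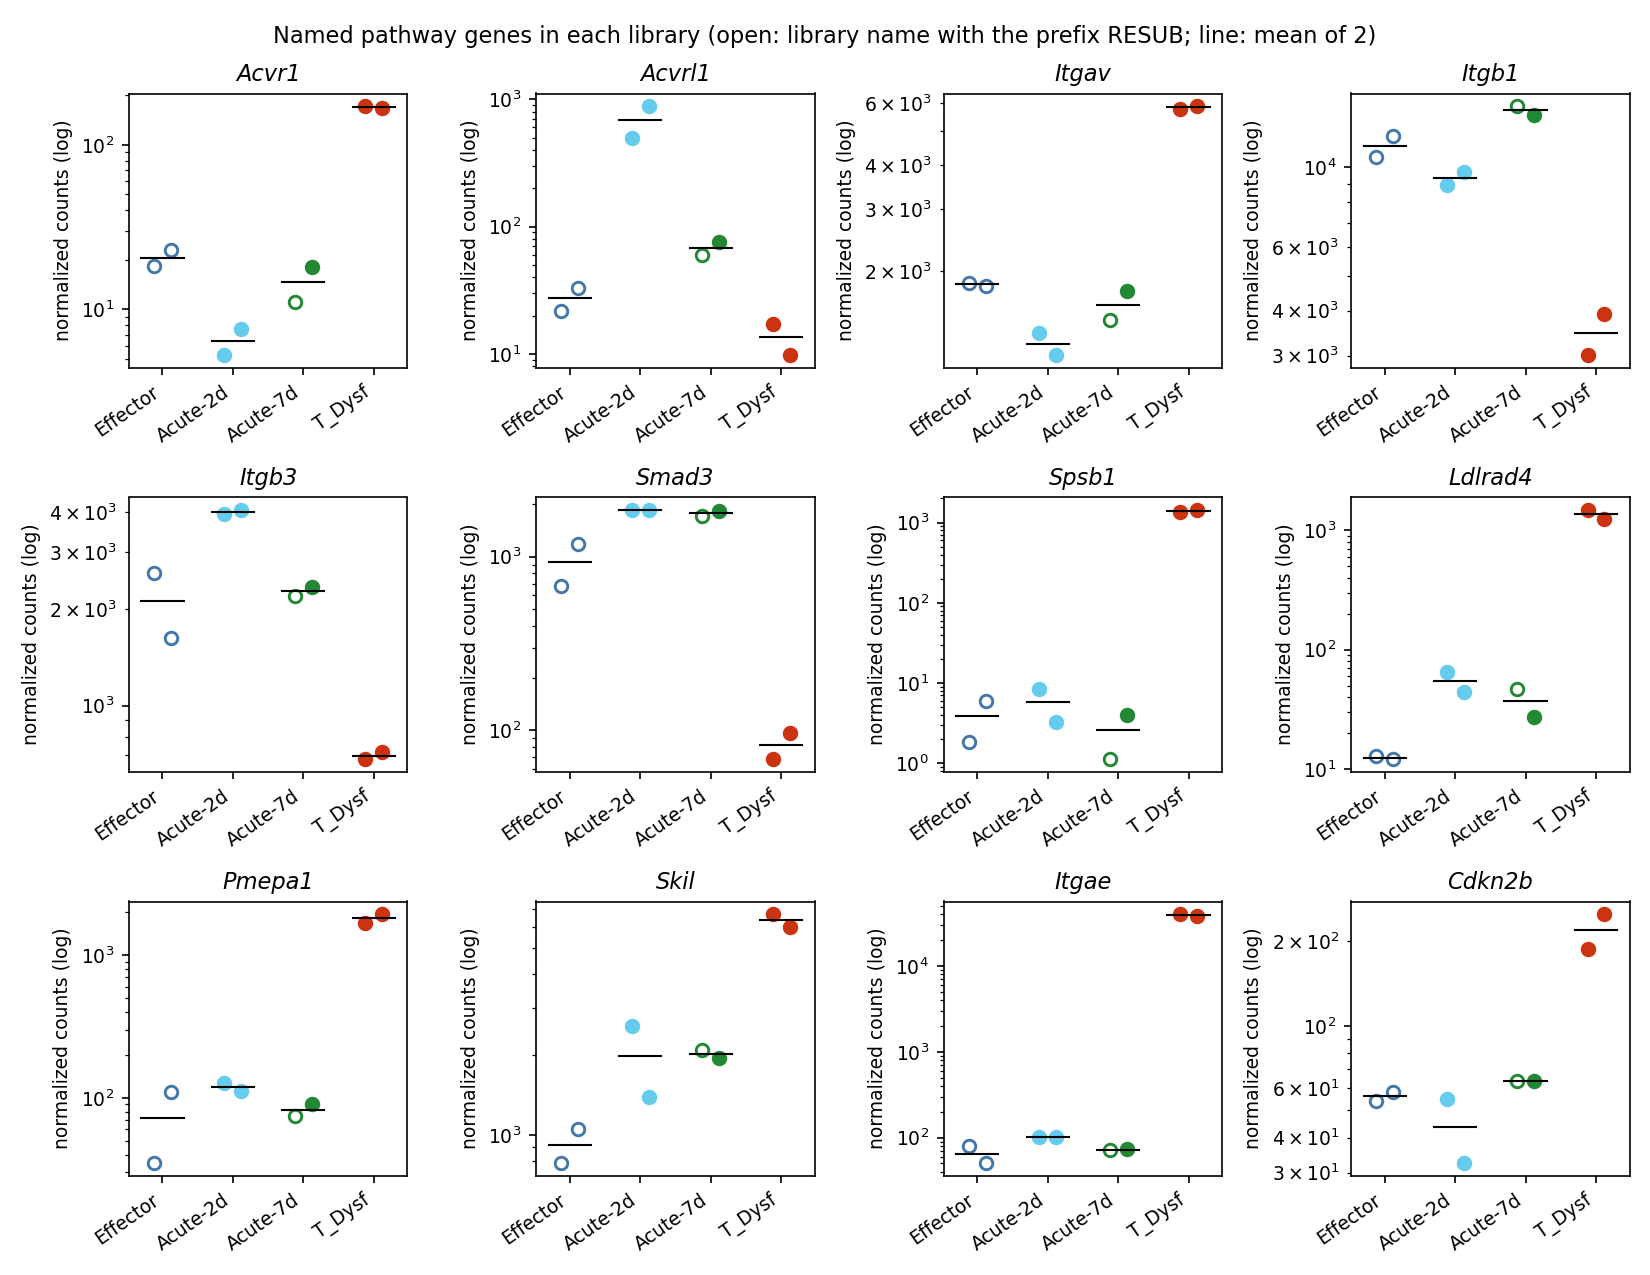
Normalized counts, on log axes, of 12 genes of the pathway lists in each library; lines are means of 2 and open points mark the libraries with the prefix RESUB. Smad3 lies at 68.2 and 96.1 in T_Dysf and at 679 or more elsewhere, and Itgav at 5768 and 5881 in T_Dysf and at 1846 or less elsewhere.

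The genes whose pattern over the 8 libraries was most like that of each member were sought among the 12028 genes with a mean of at least 50, by Pearson's r of log2(normalized count + 1). This is a description; the libraries fall into conditions, so r mostly reflects condition means. Nearest to Tgfb3 were Itgae (r = 0.9985), Gja5 (0.9926) and Zfp983 (0.9924). Tgfb3 and Gja5 both reached a mean of 50 only through T_Dysf, so a high r between them was fixed by the filter. Gja5 had a condition mean of 3793 in T_Dysf and 1.57 to 2.15 elsewhere. Zfp983 had 421 in T_Dysf and 178 to 202 elsewhere, a far smaller change than that of Tgfb3, which r does not show. Nearest to Tgfbr2 were Nt5e (0.9941), Itga1 (0.9917) and Fam214a (0.9906), and nearest to Acvr2a were Cntn1 (0.9977), Pfn2 (0.9902) and Sqstm1 (0.9890). Plod2, Slc12a7 and Ssbp2 were nearest to Acvr1b (0.9959 to 0.9867), Arid4a, Rnf214 and Rnf25 to Tgfbr3 (0.9833 to 0.9821), and Ankrd50, Per1 and Btg1 to Furin (0.9882 to 0.9824). Of these, Itgae had its highest condition mean, 39140, in T_Dysf, and 65.3 to 101 elsewhere, and Nt5e, which encodes the ectoenzyme CD73, had 123 in Effector, 896 and 941 in the acutely stimulated conditions and 2301 in T_Dysf.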

How the data were processed

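RNA-Seq libraries of P14 CD8+ T cells were analysed from 1 table of 24303 genes and 8 libraries, 2 per condition. Per the labels and methods, the authors aligned reads to mm10 with STAR, quantified RefSeq transcripts in Partek Flow, and divided estimated counts by DESeq2 median-ratio size factors before they deposited the values, a signal called normalized counts here. Whole reads were not recovered: 52.4% to 75.6% of values under 1000 reads were within 0.02 of a whole multiple of the most frequent low value, which was taken as the worth of 1 read, so no count model was fitted.

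Differences were fitted with limma (3.58.1, R 4.3.3; lmFit and eBayes with trend, two-sided) on log2(value + 1) over all genes and libraries, with 4 condition means and no covariate; p-values were adjusted by Benjamini-Hochberg over all genes. The procedure was tested on simulated data. Pairs of libraries allow no exact permutation test that reaches 0.05. Exon lengths and positions came from GENCODE vM21 and promoters from RefSeq (GRCm38.p6). Values were scaled by union exon length, whereas the authors counted RefSeq transcripts.

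The members and lists were chosen with earlier results of these data known. All 10 members are named; of each list, the genes called between T_Dysf and Acute-7d with a mean of at least 50 are named, at most 4 with the largest differences. Ski, Acvr1c, Mmp9, Lrrc32, Itgb6, Smad2, Smad4, Smad7, Inha, Gdf11, Id3, Tgif1, Usp4, Usp11, Usp15 and the markers named fall outside this rule and were named after their values were seen. Likeness took the 3 genes with the highest r for members called by the F test. Alternatives covered pseudocounts of 0.1 and 10, filters at 50, other scalings, other designs and thresholds, and leaving out each library.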

Additional observations from a re-analysis of the deposited data

How the results depend on the processing

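Over 21 or 22 alternatives each, the called differences of Tgfb3 in the comparisons of T_Dysf, and of Acvr2a in those of Effector, kept their direction and call. Those with an unadjusted p under 0.05 or an adjusted p under 0.10 only loosen the threshold of the same fit, so they could not end a call. The number of members called moved more. Between T_Dysf and Acute-7d it was 1 and became 2, with Tgfbr3, on testing genes averaging at least 50 or reaching 50 in a library (fewer genes tested), with an unadjusted p under 0.05 and with an adjusted p under 0.10, and ran from 1 to 2 with a library left out. Between T_Dysf and Acute-2d it was 2 and became 1 with equal 75th percentiles, quantile normalization, the fit of the 2 conditions compared, the replicate block and the term for the RESUB libraries, and, chosen after seeing the data, without the 3 RESUB libraries; it ran from 1 to 2 with a library left out. In the fit of the 2 conditions compared (fewer libraries) the count fell from 5 to 3 between T_Dysf and Effector (3 to 5 with a library left out; 3 without T_Dysf replicate 1), from 4 to 1 between Effector and Acute-7d (2 to 4; 2 without Acute-7d replicate 1) and from 4 to 1 between Effector and Acute-2d, where the RESUB term gave 2. The cause was not tested where none is named. Protein-coding genes alone, also chosen after seeing the data, moved no pairwise count. The members had 48 single differences. With each counted once per alternative, 962 results kept direction and call, 51 lost the call, 10 gained it and 9 reversed. The reversed ones were all small and uncalled. Acvr2a between T_Dysf and Acute-2d became -0.10 with equal 75th percentiles and -0.05 with quantile normalization (-0.03 to 0.07 with a library left out). Tgfb3 between Effector and Acute-7d became -0.08 with equal 75th percentiles and -0.11 with the RESUB term (-0.17 to 0.26 with a library left out), and Tgfbr1 between Effector and Acute-2d ran from -0.31 to 0.26.

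Equal 75th percentiles moved the median of all genes by -0.111 between Effector and Acute-2d, and the share of called genes that were higher from 49% to 35.8% there and from 51.9% to 40.7% between Effector and Acute-7d. Called genes over the whole table ran, from the lowest to the highest alternative that kept all libraries, from 541 to 3184 between T_Dysf and Acute-7d (1353 as reported), from 1300 to 3517 between T_Dysf and Acute-2d (1787), from 386 to 4060 between T_Dysf and Effector (2241), from 155 to 3515 between Effector and Acute-7d (1958), from 235 to 3705 between Effector and Acute-2d (2135) and from 1 to 910 between Acute-7d and Acute-2d (41). With a library left out these counts ran from 422 to 1534, 656 to 1867, 585 to 2484, 378 to 2156, 553 to 2363 and 61 to 376 in the same order; the lowest came without T_Dysf replicate 1 in each comparison of T_Dysf, without Acute-7d replicate 1 between Effector and Acute-7d, and without Acute-2d replicate 1 between Effector and Acute-2d, while 376 came without Acute-2d replicate 2. Where leaving out a library left a condition with 1, that library was assumed to vary like the others. Replicate numbers were not taken as pairs: r of replicate differences ran from -0.199 to 0.197 over 6 pairs of conditions, and the replicate block called 1 member between T_Dysf and Acute-2d, 4 between T_Dysf and Effector and 3 in each comparison of Effector with an acutely stimulated condition. Depth limits Tgfb2 and Itgb8, for which no fold change could be given.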
